A study of Mus musculus with 8 samples.

Results

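The Brg1 landscape of mouse mammary cells was taken as the regions at which both Brg1 libraries carried a hotspot, an interval enriched for sequence tags after chromatin immunoprecipitation with a monoclonal Brg1 antibody. Hotspots of both lists that overlapped by at least 1 bp were merged, and 51805 of the 316784 merged Brg1 regions held a hotspot of each library. Across the 6 antibody libraries of the series, merging gave 532751 regions. The cells were the established 3134 mammary epithelial line, labelled untreated, with replicates 1 and 2 for each of Brg1, CHD4 and Snf2h. All groups share this one line, and no label gives separate cultures for the replicates, so spread between libraries may be technical. DNA inputs were not analysed here. The labels' extraction text describes DNase I digestion, and the immunoprecipitation itself is not described there.

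Brg1 is the ATPase of SWI/SNF (BAF) complexes, which use ATP to slide or evict nucleosomes and so change access to DNA. In mammalian cells it is known from promoters and enhancers, and in mammary cells from its work with steroid receptors. The other remodelers of the series served as background: CHD4, the motor subunit of NuRD, and Snf2h, the motor of the ISWI family. Coordinates are on mm9. Gene annotation and sequence at these coordinates were not analysed here, so sites are given by position.

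The Brg1 lists held 115361 hotspots (replicate 1) and 260036 hotspots (replicate 2). Their lowest Z scores, the enrichment score in the lists, were 9.49 and 2.00. The maximum tag density of a hotspot, called its height below, is on a scale that the files do not explain, and tag totals per library are unknown. Heights were therefore compared between libraries as percentiles within a list.

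Tall Brg1 hotspots recurred in the other library and low ones mostly did not. Of the replicate 1 hotspots, 49.8% lay in replicated sites (95% Wilson interval 49.5% to 50.1%, which covers counting error only), and of the replicate 2 hotspots 20.4% did (20.2% to 20.5%). In replicate 1 this share rose from 6.75% in the lowest decile of height to 46.3% in the sixth and 99.8% in the highest. In replicate 2 it stayed between 4.17% and 7.0% over the lower 6 deciles, was 20.3% in the eighth, and reached 90.1% in the highest. The lists covered 49.7 Mb (replicate 1) and 131 Mb (replicate 2) of the 2577 Mb between the outermost hotspots. Some low hotspots would thus overlap by position alone, and the share that coverage would give was not computed. At the lowest Z score of replicate 1, applied to both lists, 36742 sites were found, with 36.5% of replicate 1 and 67.8% of replicate 2 hotspots in them. With the taller 50% of each list, these shares were 76.2% and 31.3%.

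**Figure D1:**
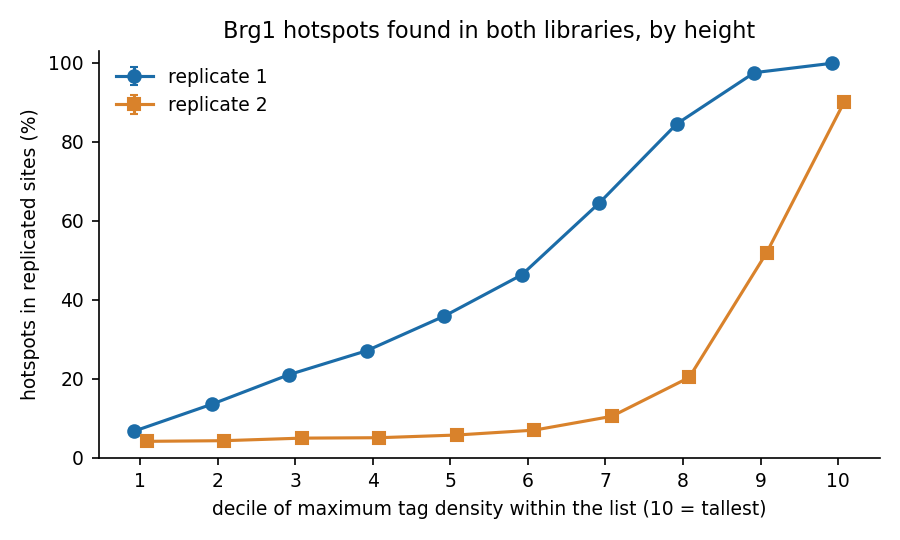
Percentage of hotspots that lie in a replicated Brg1 site (y) against decile of maximum tag density within the list (x), for replicate 1 (circles) and replicate 2 (squares), with 95% Wilson intervals smaller than the symbols. The replicate 1 share climbs steadily from 6.75% to 99.8%, and the replicate 2 share stays under 8% through the sixth decile before it reaches 90.1%.

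Hotspots inside replicated sites were wider than those outside. Their median width was 473 bp against 309 bp in replicate 1, and 756 bp against 376 bp in replicate 2. Width enters the overlap rule, so this is a description and not a test. Of the Brg1 hotspots outside replicated sites, 28.8% in replicate 1 and 41.7% in replicate 2 lay within 12.5 kb of one. That share also moved with height. In replicate 1 it was 6.76% in the lowest decile and 66.2% in the eighth, and in replicate 2 it was 20.2% and 66.3%.

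Most sites were simple in make-up. At 46264 sites (89.3%) a single hotspot of each library met. Another 4422 sites (8.54%) joined 2 or more replicate 1 hotspots under 1 replicate 2 hotspot, 694 sites (1.34%) had the reverse arrangement, and 425 sites (0.820%) had 2 or more of both. At the single-to-single sites the midpoints of both hotspots lay 81 bp apart in the median (quartiles 36 and 164 bp), with a median signed offset of 1 bp. The replicate 2 hotspot was the wider at 87.1% of them, by a median factor of 1.46, and it enclosed the replicate 1 hotspot at 63.8%. The rule requires both hotspots to overlap, which limits how far apart their midpoints can lie. The offset is therefore a description and not a test of position. At these sites the libraries differed in how far a hotspot extended.

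Replicated Brg1 sites had a median width of 802 bp (quartiles 599 and 1171 bp, widest 7520 bp) and covered 50.02 Mb. Of the 51805 sites, 6361 (12.3%) were up to 500 bp wide, 17635 (34.0%) exceeded 1000 bp and 2821 (5.45%) exceeded 2000 bp. The distribution was thus skewed to wide sites. The width depends on what is measured. The stretch marked by both libraries had a median of 468 bp and covered 28.6 Mb, the tallest replicate 1 hotspot in a site had a median of 480 bp, and the tallest replicate 2 hotspot 763 bp. The shared stretch was under 50 bp at 781 sites (1.51%).

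**Figure D2:**
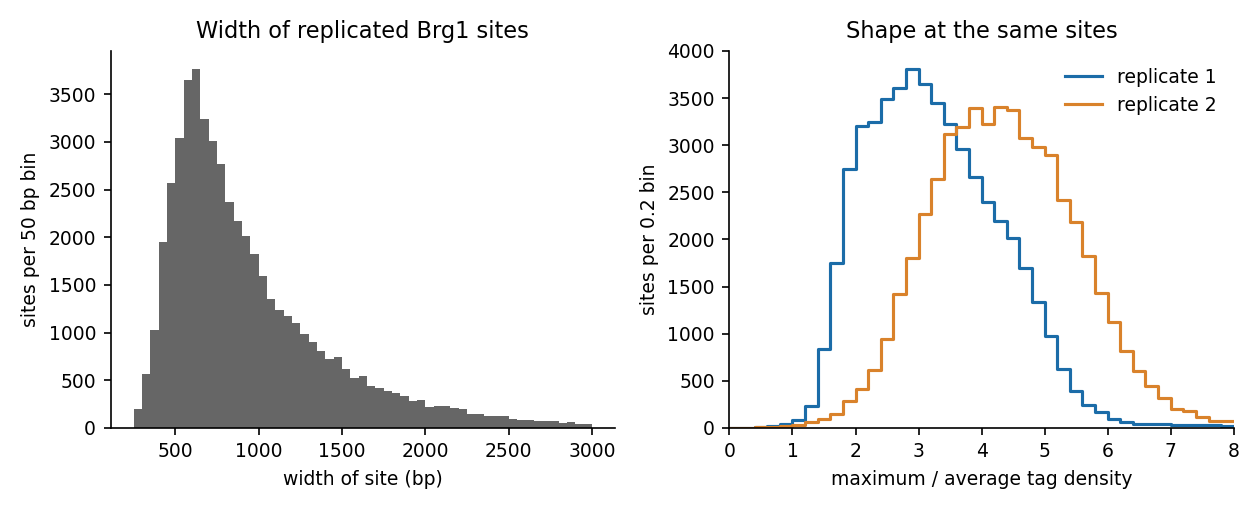
Left, number of replicated Brg1 sites (y) per 50 bp bin of merged width (x), with 437 sites wider than 3000 bp not drawn. Right, number of sites (y) by the ratio of maximum to average tag density (x) of the tallest hotspot of each library, where the replicate 1 curve (median 3.15) lies to the left of the replicate 2 curve (median 4.33), and ratios above 8 (0.625% and 1.17% of sites) are not drawn.

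Height at the sites spanned a wide range in both libraries. Replicate 1 had a median maximum density of 27.8 (quartiles 16.8 and 48.1) and a highest value of 647, 23.3 times the median. Replicate 2 had a median of 12.5 (quartiles 6.01 and 23.7) and a highest value of 258, 20.7 times the median. The tallest 1% of sites held 5.75% and 6.36% of the summed height in replicates 1 and 2, and the tallest 10% held 31.3% and 35.3%, so neither library was carried by a few sites. The order of heights was alike in both libraries, with a Spearman's rank correlation of 0.791 across the 51805 sites, which are not independent replicates. The median site stood at percentile 75.4 of the replicate 1 list and at 88.6 of the replicate 2 list.

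The tallest site by mean percentile was chr6:143588842-143589876, 1035 bp wide. Its maximum density was 465 in replicate 1 and 258 in replicate 2, where it was the top of the list. The second was chr7:108598033-108600379, with 415 and 214. The third was chr17:44846279-44847461, with 402 and 226. Next came chr17:84514986-84516240, with 487 and 183, and chr6:145708618-145711653, with 389 and 194. All 5 lay above percentile 99.99 in both libraries, and each stood in a cluster of 2 to 4 sites as defined below. Of these, 3 were 1035, 1183 and 1255 bp wide, near the median of 1133 bp in the tallest quartile of sites, and the others were 2347 and 3036 bp wide.

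The widest sites were other places. The site at chr5:143575039-143582558 was 7520 bp wide and joined 7 hotspots of replicate 1 and 2 of replicate 2, with maximum densities of 56.2 and 65.8. The site at chr11:32120315-32127155 was 6841 bp wide with densities of 158 and 84.1, and that at chr18:83078572-83084955 was 6384 bp wide with densities of 55.6 and 19.6. None of the widest was among the tallest: in replicate 1 they stood at percentiles 91, 99.3 and 90.8, and in replicate 2 at 99.2, 99.6 and 93.4. Over all sites, height and width still rose together. The median width was 546 bp in the lowest quartile of mean height percentile, 724 bp and 947 bp in the middle quartiles, and 1133 bp in the highest. Spearman's rank correlation between height and the width of the same hotspot was 0.770 in replicate 1 and 0.692 in replicate 2.

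The ratio of maximum to average density describes the shape of a site: a flat plateau gives a value near 1 and a sharp summit on a broad base gives a high one. Its median was 3.15 in replicate 1 (quartiles 2.45 and 3.98) and 4.33 in replicate 2 (3.55 and 5.16). The highest ratios were 507 and 1165, each at a site in the lowest quartile of mean height percentile. Whether such values describe a summit cannot be told without knowing how the average was computed. At replicated sites, the ratio was higher where sites were wider. From the narrowest to the widest quartile of sites, the median ratio went from 2.35 through 2.94 and 3.41 to 4.01 in replicate 1, and from 3.39 through 3.89 and 4.54 to 5.45 in replicate 2. The order was the same in both libraries. Among all hotspots of a single list, the widest minus the narrowest quartile was 2.11 in replicate 1 and 0.0776 in replicate 2, against 1.86 at the sites as a mean of both libraries. Further, how the average was computed is unknown. If it is taken over the interval itself, ratio and width are not independent measures. Height ranked the ratio less evenly: the median went from 2.26 in the lowest height quartile to 3.78 in the highest in replicate 1, and from 3.81 to 4.62 in replicate 2.

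In a band of about equal hotspot width in each library, the relation of shape to height had the other direction. For replicate 1 hotspots of 439 to 532 bp (10484 sites) the median ratio was 3.07 in the lower part by height and 2.97 in the taller part, cut at the median. For replicate 2 hotspots of 668 to 877 bp (10389 sites) it was 4.48 and 3.91. In these bands the taller sites were the flatter ones, by a small margin in replicate 1, and other widths were not examined. The ratio was also less repeatable than height. Spearman's rank correlation between libraries was 0.430 for the ratio, 0.651 for the width of the tallest hotspot and 0.791 for height, over the same 51805 sites. All 3 values share the same intervals and libraries and are given as descriptions.

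At the extremes of shape, the 40070 sites in the upper part of both lists (above percentile 50 in each) had median ratios of 3.4 and 4.46. Ranked by the mean of the within-library percentiles of the ratio, the most peaked of them was chr17:35605880-35606150, 271 bp wide, with ratios of 10.7 and 12.3. It was followed by chr8:14559669-14559973, with 21.6 and 8.14, and chr2:131808438-131808951, with 7.86 and 14. These were narrow sites, from 271 to 514 bp, each alone within 12.5 kb. The least peaked was chr10:92607827-92608399, whose maximum of 44.0 lay below its average of 99 in replicate 1, as did 20.6 below 33.0 in replicate 2. A maximum below the average was listed at 59 sites in replicate 1 and 36 in replicate 2. How either density was computed is unknown, so these sites are reported as deposited, and without them the mean of both libraries' median ratios stayed at 3.74.

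Replicated Brg1 sites lay close together. The gap from the end of a site to the start of the next had a median of 17023 bp (quartiles 4667 and 47408 bp), while the mean was 48593 bp and the longest gap 9694650 bp. Of the 51785 gaps, 10.2% were up to 1 kb, 15.8% were 1 to 5 kb, 17.0% were 5 to 12.5 kb, 33.2% were 12.5 to 50 kb, 12.8% were 50 to 100 kb and 11% were longer. In all, 22261 gaps (43.0%) were within 12.5 kb. Measured in single lists, which hold more hotspots, the median gap was 12374 bp in replicate 1 and 4664 bp in replicate 2.

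Sites flanking a short gap were taller than sites flanking a long one. Those on either side of a gap up to 1 kb had median percentiles of 80.9 (replicate 1) and 91.3 (replicate 2), and those around gaps over 100 kb had 43.8 and 68.7. Neighbours also resembled each other in height at every distance measured. Spearman's rank correlation between the heights of adjacent sites was 0.242 in replicate 1 and 0.216 in replicate 2 at gaps up to 1 kb, 0.301 and 0.259 at 1 to 5 kb, 0.363 and 0.291 at 50 to 100 kb, and 0.279 and 0.194 beyond. For the ratio of maximum to average density these correlations were lower. They lay between 0.0658 (gaps up to 1 kb) and 0.164 (over 100 kb) in replicate 1. In replicate 2 they lay between 0.0194 (1 to 5 kb) and 0.0828 (up to 1 kb), so the libraries differed in their order over distance. Adjacent pairs share sites and libraries, and these values describe the lists only.

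**Figure D3:**
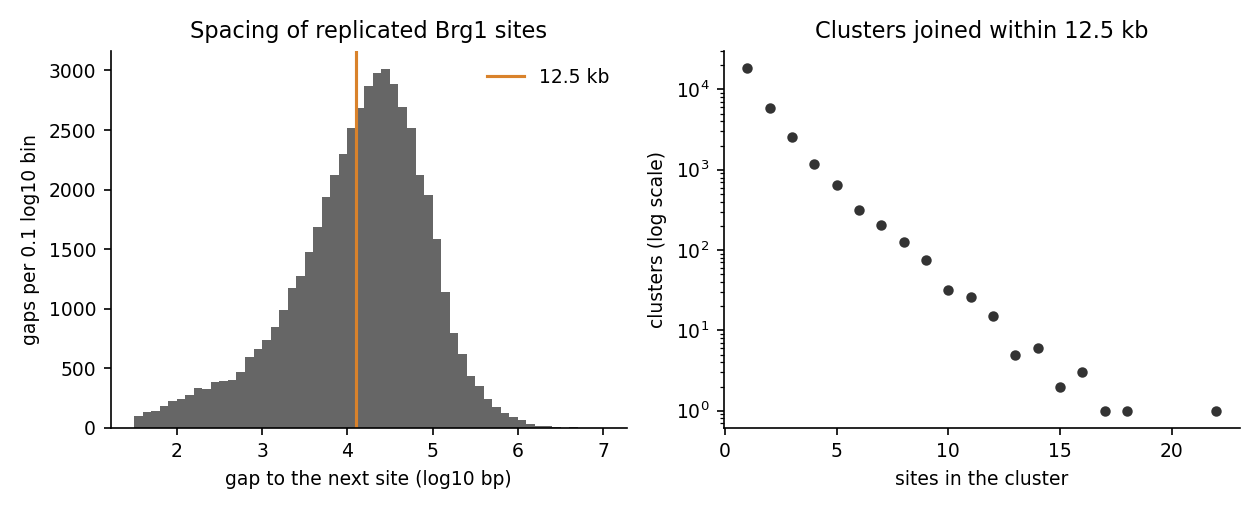
Left, number of gaps (y) between neighbouring replicated Brg1 sites per 0.1 of log10 gap length (x), with the 12.5 kb stitching distance marked, below which 43.0% of gaps fall. Right, number of clusters (y, log scale) against the sites they hold (x), which falls from 18538 single sites to 1 cluster of 22.

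Joining sites across gaps of at most 12.5 kb, the distance commonly used to stitch enhancers, placed 33267 sites (64.2%) in 11006 clusters of 2 or more and left 18538 sites (35.8%) single. Of the clusters, 5851 had 2 sites, 2524 had 3, 1177 had 4, 1362 had 5 to 9, and 92 had 10 or more. The clusters had a median span of 9749 bp and together spanned 132 Mb, or 5.14% of the 2577 Mb between the outermost hotspots. Sites filled a median of 27.0% of a cluster's span. With a distance of 5 kb, 43.3% of sites were clustered, and with 25 kb, 79.8%.

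The cluster with most sites was chr11:117793444-117877662, where 22 sites lay in 84219 bp and covered 31.5% of it. Its maximum densities ran from 44.0 to 335 (median 98.7) in replicate 1 and from 11.7 to 98.0 (median 39.1) in replicate 2. Its lowest site exceeded the median over all sites in replicate 1 (27.8) but not in replicate 2 (12.5). The next was chr9:102617192-102687250, with 18 sites in 70059 bp and median densities of 81.7 and 36.3. The third was chr9:106230101-106332198, with 17 sites in 102098 bp, the longest span of any cluster, and median densities of 49.2 and 19.6. A replicated CHD4 site was present at 16 of 22, 14 of 18 and 8 of 17 of these sites, and a replicated Snf2h site at 5, 5 and 3. Among all Brg1 sites in clusters of 10 or more, the CHD4 and Snf2h shares were 61.3% and 23.9%. Among single Brg1 sites they were 35.1% and 21.2%.

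The most tightly packed clusters of 5 or more sites were short and differed in height. At chr12:81004960-81009822, 5 sites filled 87.5% of 4863 bp, with median densities of 23.7 and 6.64, below the medians over all sites. At chr13:41495473-41500930, 5 sites filled 77.3% of 5458 bp, and at chr4:111264255-111271188, 6 sites filled 60.0% of 6934 bp. The second of these had median densities of 41.1 and 23.2, above those over all sites, and reached 137 and 102 at its tallest site. The third had medians of 16.2 and 8.14 and reached 64.3 and 34.9. At the lowest Z score of replicate 1 for both lists, the clusters held 1, 5 and 4 sites in this order. With the taller 50% of each list they held 5, 5 and 3. Whether such a cluster is several sites or 1 domain listed as several hotspots cannot be told from the lists.

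Clustering went with height. The share of sites with a neighbour within 12.5 kb was 26.5% in the lowest decile of mean height percentile, 60.8% in the third, 69.4% in the sixth and 82.5% in the highest, a difference of 56.1 percentage points between the extremes. The gap to the nearest site fell over the same deciles from a median of 35626 bp to 2989 bp. By the heights of replicate 1 alone the difference was 54.5 points, and by those of replicate 2 alone 51.2. It was 28.3 points with the taller 50% of each list, 34.0 among all replicate 1 hotspots and 10.7 among all replicate 2 hotspots, where 93.0% of hotspots were clustered.

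Cluster size showed the same pattern in both libraries. The median percentile of a site rose from 64.2 in single sites through 74.1 in pairs, 79.1 in clusters of 3 or 4 and 83.9 in clusters of 5 to 9 to 88.7 in clusters of 10 or more in replicate 1. In replicate 2 it rose from 83.5 through 88.4, 90.6 and 92.8 to 94.6. The share of sites in the top decile of the replicate 1 list was 12.9% for single sites and 45.1% for clusters of 10 or more. Width rose too, from a median of 716 bp to 913 bp, and clustered sites were 137 bp wider in the median than single ones. That difference shrank to between 25 and 57 bp when low hotspots were removed from the lists, and among the tallest 18232 sites it was -41.5 bp, with single sites the wider.

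Within clusters of 3 or more sites (5155), the tallest site was 1.81 times the cluster's median height in replicate 1 and 1.97 times in replicate 2, as medians. Both libraries named the same site as tallest in 3357 clusters (65.1%), against 26.7% for an even division over the sites. The tallest site was at an end of the cluster in 51.2% and 51.5% of clusters, against 53.5% for an even division.

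**Figure D4:**
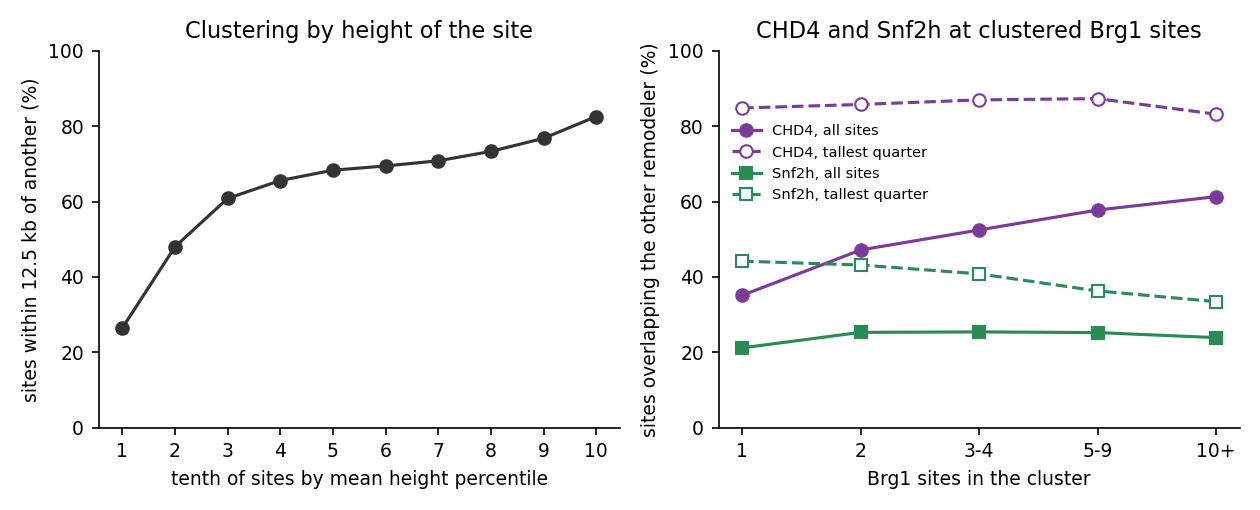
Left, percentage of replicated Brg1 sites with another within 12.5 kb (y) by decile of mean height percentile (x), rising from 26.5% to 82.5%. Right, percentage of Brg1 sites that overlap a replicated CHD4 site (circles) or Snf2h site (squares) by number of Brg1 sites in the cluster, over all sites (filled) and in the tallest quartile (open), where the CHD4 share stays between 83.2% and 87.3% and the Snf2h share goes from 44.2% to 33.5%.

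The overlap of Brg1 sites with CHD4 and Snf2h was followed by cluster size, without a test. Over all Brg1 sites, the share overlapping a replicated CHD4 site rose from 35.1% of single sites to 47.2%, 52.5%, 57.8% and 61.3% in clusters of 2, 3 or 4, 5 to 9 and 10 or more. The share overlapping a replicated Snf2h site, which needs a hotspot in the list of 32310 of Snf2h replicate 1, was between 21.2% and 25.4%. Taken list by list, a hotspot of CHD4 replicate 1 was present at 37.4% of single sites and 60% of sites in clusters of 10 or more, and one of CHD4 replicate 2 at 68.3% and 93.5%. For Snf2h the first list gave 23.9% against 25.6%, and the second gave 47.6% against 64.8%, so 1 Snf2h library was higher at larger clusters, as both CHD4 libraries were. Clustered sites are taller, so the comparison was repeated in the tallest quartile of Brg1 sites. There the CHD4 share was 84.8% for single sites and between 83.2% and 87.3% in clusters. List by list, it lay between 82.4% and 87.1% over the cluster sizes for CHD4 replicate 1. For CHD4 replicate 2 it lay between 98.4% and 99.3%, which left little room for a rise. The Snf2h share in this quartile went down from 44.2% of 2780 single sites to 33.5% of 541 sites in clusters of 10 or more. Most of the decline lay in 1 Snf2h library: the share with an Snf2h hotspot went from 47.8% to 35.1% in replicate 1 and from 84.1% to 80.8% in replicate 2. In the same sites the median Brg1 percentile was 93.6 against 95.3 in Brg1 replicate 1, and these shares were not tested.

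Over the 19 autosomes, 50647 sites gave 21.0 sites per Mb, and 16 autosomes lay within 20% of that density. Chromosome 11 was the densest with 30.6 sites per Mb, 1.46 times the autosomal density, followed by chromosome 19 at 1.24 times. Chromosome 14 was the sparsest with 15.8 sites per Mb, 0.754 times, and chromosome 12 came next at 0.825 times. The coefficient of variation between autosomes was 15.8%, and 12.2% without chromosome 11. The full lists were more even, at 7.13% in replicate 1 and 8.78% in replicate 2. Chromosome 11 stood at 1.21 times the autosomal density in the replicate 1 list and at 1.03 times in the replicate 2 list, where chromosome 2 was the densest at 1.2 times.

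Taller hotspots were spread more unevenly, in the same way in both libraries. Among the 32310 tallest hotspots of each, chromosome 11 stood at 1.82 and 1.68 times the autosomal density, chromosome 19 at 1.38 and 1.29, chromosome 15 at 1.32 and 1.23, and chromosome 14 at 0.584 and 0.633. In the tallest decile of replicated sites, chromosome 11 reached 1.88 times and chromosome 15 1.64 times the autosomal density, and chromosome 14 fell to 0.417 times. The share of a chromosome's own sites in that decile ran from 5.65% on chromosome 14 to 15.1% on chromosome 15. Number and height of sites could part: chromosome 6 had fewer sites than the average, at 0.914 times, and a share of 13% in the tallest decile. Copy number along the chromosomes of this line was not assessed, and its part in these densities was not tested.

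The median form of all replicated sites varied little between autosomes. Median width lay between 771 and 835 bp, and the median ratio of maximum to average density between 2.99 and 3.4 in replicate 1 and between 4.20 and 4.45 in replicate 2. Within its narrow range, median width rose with site density, with a rank correlation of 0.771 over the 19 autosomes. The share of clustered sites ran from 59.9% on chromosome 3 to 71.8% on chromosome 11. It followed density with a rank correlation of 0.8 over the 19 autosomes, which share the same libraries. More sites per Mb lie closer together, so this share and density are not independent measures. At the scale of 1 Mb, 2403 autosomal windows held a median of 18 sites (quartiles 8 and 31, highest 99). No site was found in 71 windows (2.95%), the densest 10% of windows held 25.0% of the sites, and 578 windows (24.1%) were enough to hold 50% of them.

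Whether these features set Brg1 apart was asked over libraries, with each list held to its 32310 tallest hotspots, the length of the shortest list. Median hotspot width was 586 bp in replicate 1 and 929 bp in replicate 2 of Brg1, 532 and 886 bp in those of CHD4, and 402 and 613 bp in those of Snf2h. The mean was 758 bp ± 243 for Brg1 (SD, n = 2) and 608 bp ± 205 for the other libraries (SD, n = 4), with an exact two-sided permutation p of 0.4. In all 3 antibodies the second library had the wider hotspots. The ratio of maximum to average density was 3.58 and 4.48 in Brg1 replicates 1 and 2, 4.27 and 5.01 in CHD4, 3.38 and 4.05 in Snf2h (exact permutation p = 0.867). A neighbour within 12.5 kb was found for 65.3% and 64.4% of Brg1 hotspots, 64.9% and 68.5% of CHD4 hotspots, and 39.8% and 65.3% of Snf2h hotspots (exact permutation p = 0.867). The coefficient of variation over autosomes was 27.8% and 23.5% in Brg1, 21.3% and 28.0% in CHD4, 7.60% and 33.0% in Snf2h (exact permutation p = 0.8). Both Brg1 values lay inside the range of the other libraries in every measure but width, where Brg1 replicate 2 was the widest of the 6. All 4 Benjamini-Hochberg adjusted p-values were 0.867, and with 15 arrangements of 6 libraries no p under 0.0667 was possible. Snf2h replicate 1 had the fewest neighbours and the most even spread, and without it the Brg1 minus other difference was -1.36 and -1.84 percentage points in these measures. Its list is the shortest and entered whole, while every other list was cut to its tallest hotspots. Uncut, the Brg1 lists had coefficients of variation of 7.13% and 8.78%. What the cut adds to the differences between libraries was not tested.

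Among replicated sites at equal number, the 18232 tallest Brg1 sites had a median width of 1100 bp, a median gap of 27660 bp and 53.3% of sites in clusters. The 18232 tallest CHD4 sites had 1061 bp, 25378 bp and 56.0%, and the 18232 Snf2h sites 650 bp, 53286 bp and 36.8%. By these values Brg1 sites lay nearer to CHD4 sites than to Snf2h sites in width and spacing, a difference that was not tested. The sets differ in height: Snf2h enters with all its sites, Brg1 and CHD4 with the tallest of 51805 and 30521. Among Brg1 sites, width rose with height. The Snf2h set also needs a hotspot of Snf2h replicate 1. At equal list length, where that library entered whole, 39.8% of its hotspots had a neighbour within 12.5 kb, and 65.3% did in Snf2h replicate 2.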

How the data were processed

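The 6 lists of Brg1, CHD4 and Snf2h hotspots in untreated 3134 cells were used. The authors listed hotspots per library on mm9, and CASAVA 1.6 is named without a role, per the submitters' processing notes. Neither source names the caller, its thresholds or the use of inputs. Per the file headers, the deposited values are the maximum and average tag density, a signal of unstated scaling, and a Z score, used as deposited.

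Intervals were read as closed and merged at 1 bp of overlap. Sites were stitched at gaps of at most 12.5 kb. Chromosome spans ran from the lowest to the highest hotspot of the 6 lists. Python 3.11.15, numpy 2.4.6, scipy 1.17.1, pandas 2.3.3 and matplotlib 3.10.9 were used, and the merging, stitching and permutation steps were tested on simulated data. Libraries were compared by exact permutation tests with Benjamini-Hochberg adjustment. Percentiles are ranks of maximum density within a list, and the values of a site are those of its tallest hotspot in each library. The depth per library is unknown, so no precision could be derived from it.

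Members, measures and alternatives were chosen with earlier results of these data known, and 5 alternative settings were added after seeing the files. Sites were named by rule: the 5 tallest, the 3 widest, the 3 most isolated, the 3 most and 3 least peaked, and the 3 clusters with most sites or the closest packing. Planned motif and gene annotation steps need mm9 sequence or annotation, which was not used here.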

Additional observations from a re-analysis of the deposited data

How the results depend on the processing

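Several values stayed within 1.5 times their main values in the settings that changed the lists and kept both libraries. These were the number of sites, their median width, the ratio of maximum to average density and the median gap. Width reached 951 bp in them, against 802 bp. The shares of hotspots in sites and the contrasts between clustered and single sites moved by more than 1.5 times in some of them. Requiring an overlap of 50% of the shorter hotspot gave shares of 46.8% and 19% of replicate 1 and 2 hotspots and a width difference of clustered minus single sites of 129 bp. The taller 50% of each list gave a width of 904 bp, a coefficient of variation over autosomes of 22.4%, chromosome 11 at 1.67 times the autosomal density, a clustering difference between extreme deciles of 28.3 points, a width difference of 25 bp and shares of 76.2% and 31.3%. The lowest Z score of replicate 1 for both lists gave 951 bp, 17.7%, a width difference of 53 bp and shares of 36.5% and 67.8%. Replicate 2 held to the length of replicate 1 gave 871 bp, 19.5%, 57 bp, 43.7% and 39.6%. Measured otherwise, site width was 468 bp (shared stretch), 480 bp (replicate 1 hotspot) or 763 bp (replicate 2 hotspot). Stitching at 5 kb gave 43.3% of sites in clusters and a width difference of 118 bp, and at 25 kb 79.8% and 175 bp. The tallest sites, as many as Snf2h has, gave 3476 clusters, a clustering difference of 23.5 points and a width difference of -41.5 bp. The coefficient of variation was 17.6% for covered bases and 12.2% without chromosome 11. These last settings on the tallest sites and chromosome 11 were chosen after seeing the data. The cause of each change was not tested.

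Leaving out either Brg1 replicate leaves the hotspots of 1 list, and the values then ran from 115361 to 260036 for the number, 366 to 419 bp for width, 2.46 to 3.88 for the ratio, 4664 to 12374 bp for the gap, 50.3% to 77.3% for gaps within 12.5 kb, 73.4% to 93.0% for clustering and 26709 to 40874 for clusters. They ran from 7.13% to 8.78% for the coefficient of variation, 1.03 to 1.21 for chromosome 11, 0.812 to 0.927 for chromosome 14, 10.7 to 34.0 points for the clustering difference, 0.0776 to 2.11 for the ratio in the widest minus the narrowest quartile, and 58 to 69 bp for the width difference.

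For Brg1 minus the other libraries, full lists gave -38.5 bp for width, -0.569 for the ratio, 18.3 points for neighbours and -1.47 points for the coefficient of variation, and 50% of the list length gave 126.5 bp, -0.238, 1.32 and -5.25 points. Leaving out each library gave -22.25 (without Brg1 replicate 2) to 320.75 bp for width, and -0.592 to 0.309 (without Brg1 replicate 1) for the ratio, which was also above 0 without CHD4 replicate 2, at 0.136. It gave -1.36 to 8.22 points for neighbours and -1.84 to 6.62 points for the coefficient of variation, both lowest without Snf2h replicate 1. With the replicate block the differences were the same, 149 bp for width, and the exact permutation p-values were 0.222, 0.778, 0.889 and 0.778. No label says that replicate numbers mark a shared batch. Depth is unknown, so no limit of detection can be given.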

Other observations

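The most isolated Brg1 sites were narrow, and each stood in the lower part of both lists. The site at chrX:117225943-117226316 was 2284151 bp from its nearest neighbour, with maximum densities of 2.90 (percentile 0.463) in replicate 1 and 2.69 (percentile 30.1) in replicate 2. The site at chr10:47483437-47483745 had 6.95 (percentile 14.2) and 2.06 (5.65), and that at chr13:87453388-87453693 had 2.90 (0.463) and 2.37 (18.7). All 3 were between 306 and 374 bp wide with ratios of maximum to average density of 1.39, 1.87 and 1.40 in replicate 1.

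The X chromosome held 1158 Brg1 sites, 7.09 per Mb, and these were low as well as few. Their median height percentile was 50.2 in replicate 1 and 80.8 in replicate 2, below every autosome, whose lowest medians were 68.4 and 86.2. Only 12 of them (1.04%) were in the tallest decile of sites, and 49.5% were clustered. Median width was 779 bp, inside the range of the autosomes. Density relative to the autosomes was 0.338 for sites, 0.665 and 0.452 in the full lists of replicates 1 and 2, and 0.139 and 0.172 among the 32310 tallest hotspots of each. The cause was not tested.

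Some Brg1 hotspots seen in a single library were in the top decile of its list. The top decile of height held 11484 hotspots in replicate 1 and 26013 in replicate 2. Of these, 20 and 2586 had no partner in the other library. Replicated sites thus held 99.8% and 90.1% of the top decile, against 49.8% and 20.4% of the full lists. Of the 20 and 2586 hotspots without a partner, 18 and 2012 lay within 12.5 kb of a replicated site. Over all heights, 28.8% and 41.7% of the hotspots outside replicated sites lay that close.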
